A study of Mus musculus with 47 samples.

Results

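Complement is a set of secreted proteins, receptors and regulators that tags targets for removal by phagocytes. Here 9 of its genes were followed across cultured mouse microglia that differed in Apoe genotype and in exposure to myelin. They were taken by gene name from the deposited expression table: C1qa, C1qb, C1qc, C3, C4b, C3ar1, C5ar1, Itgam and Itgb2, 9 of the 53697 genes listed. All 9 passed the filter on low values used for testing (4 or more libraries at or above 5 scaled TPM), but C4b did so only through E4 cells, in 9 of their 10 libraries.

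In the classical pathway, C1q binds a target and its associated proteases then cleave C4 and C2, which together cut C3. Fragments of C3 stay bound to the target and are recognised by complement receptor 3, the integrin heterodimer of Itgam (CD11b) and Itgb2 (CD18), while the small fragments C3a and C5a are sensed by the receptors encoded by C3ar1 and C5ar1. In the brain, microglia are the main source of C1q and carry the receptors, whereas reactive astrocytes are known for making C3 and C4; microglial uptake of complement-tagged synapses is the best known setting.

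The samples were 47 polyA RNA libraries from forebrain primary microglia of C57BL/6 mice grown in medium with fetal bovine serum. WT cells carried normal mouse Apoe, Het cells were Apoe plus/minus, KO cells were Apoe minus/minus, and E3 and E4 cells had human APOE ε3 or ε4 in place of both mouse alleles. Cells of each genotype were exposed for 3 h to myelin, the membrane that insulates axons, or not exposed, with collection at 24 h. Groups held 5 libraries, except E3 untreated, E3 myelin and Het myelin with 4. WT mice came from a Jackson Laboratory line, Het and KO from another Jackson line, and E3 and E4 from separate Taconic lines, so genotype and line cannot be told apart. Whether the replicates of a group were different animals or cultures is not given by the labels, and each p-value then rests on the spread between these samples, which may be technical.

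Levels are TPM, a length-corrected share of all transcripts, rescaled within each library to its nuclear protein-coding genes, called scaled TPM below. Levels can be compared between genes. Read depth is unknown. A single non-coding gene took 69.4% to 99.0% of TPM, and protein-coding genes took 0.468% to 27.3%. A set of 4 Het libraries stood apart with a coding share under 6%: untreated replicates 3 and 5 and myelin replicates 1 and 2. Differences were tested with limma on log2(scaled TPM + 1) over 10935 genes, with a weight per library; "called" means a Benjamini-Hochberg adjusted p under 0.05 over all genes tested. Another fit without weights and without those 4 Het libraries is given beside it as the reduced fit. Mouse Apoe went from a median of 56191 scaled TPM in untreated WT to 72.0 in untreated KO, and was 50704 in untreated Het. Untreated Het libraries ran from 15062 to 77357 and WT from 44005 to 61654, so this level does not tell Het from WT. In untreated E3 and E4 the medians were 103 and 151, and after myelin 139 and 364. The microglial markers Cx3cr1, Csf1r and Trem2 had medians over all libraries of 326, 581 and 1140 scaled TPM, while P2ry12 was at 4.41. Markers listed for border macrophages and monocytes were present too: Ms4a7 at 959, Pf4 at 387, Mrc1 at 14.4 and F13a1 at 2.52. Ccr2, Cd163 and Lyve1 of that list were at 0.406, 0.0585 and 0.0279. The summed list had untreated medians of 1878 (WT), 1557 (Het), 2021 (KO), 1054 (E3) and 1250 (E4). Its part in the differences below was not tested.

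C1qa, C1qb and C1qc lie next to each other on mouse chromosome 4 within 18.7 kb, and C3 and Itgam lie on chromosomes 17 and 7. The sequence just before the start of these genes is shown to let their letters be compared. RefSeq's promoter table (build GRCm38.p6) held 6 of the 9 genes (C1qb, C1qc, C3, C3ar1, C5ar1 and Itgam). The windows are C1qb at chr4:136886201-136886450 on the minus strand, C1qc at chr4:136893066-136893164 on the minus strand, C3 at chr17:57228137-57228386 on the minus strand and Itgam at chr7:128062390-128062639 on the plus strand, all written 5′ to 3′ along the gene. Bases within an annotated gene were left out, which shortened C1qc to 99 bases. Capitals mark the letters GAGGAA, the core bound by the myeloid factor PU.1, or their reverse complement, and in C3 the letters TTGCNNAA, a form bound by C/EBP factors.
C1qb: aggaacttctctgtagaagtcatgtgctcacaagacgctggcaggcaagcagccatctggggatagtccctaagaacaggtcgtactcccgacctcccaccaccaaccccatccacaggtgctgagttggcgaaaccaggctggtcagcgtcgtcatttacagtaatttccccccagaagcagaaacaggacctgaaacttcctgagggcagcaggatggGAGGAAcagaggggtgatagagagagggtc
C1qc: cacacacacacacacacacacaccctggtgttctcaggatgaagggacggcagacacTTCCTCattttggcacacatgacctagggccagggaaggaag
C3: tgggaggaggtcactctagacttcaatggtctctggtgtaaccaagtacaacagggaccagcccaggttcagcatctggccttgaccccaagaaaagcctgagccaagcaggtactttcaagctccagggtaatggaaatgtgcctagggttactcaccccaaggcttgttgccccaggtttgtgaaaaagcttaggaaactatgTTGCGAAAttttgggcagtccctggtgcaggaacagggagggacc
Itgam: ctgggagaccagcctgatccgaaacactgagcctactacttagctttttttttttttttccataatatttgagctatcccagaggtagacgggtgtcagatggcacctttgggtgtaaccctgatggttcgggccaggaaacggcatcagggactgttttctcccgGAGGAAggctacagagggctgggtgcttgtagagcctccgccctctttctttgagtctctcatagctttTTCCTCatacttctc
Over the 250 bases before the RefSeq start and on both strands, GAGGAA occurred once in C1qb, once in C1qc, 2 times in Itgam, and in 23.3% of all 32851 promoters in the table. TTGCNNAA occurred in C3, at 45 to 38 bases before the start, and in 9.56% of promoters. The paired site of interferon regulatory factors was in none of the 6 and in 2.98% of promoters. These matches are descriptions of the letters in these windows.

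In untreated WT cells the 3 C1q genes were by far the highest of the 9. C1qb stood at 4884 ± 402 scaled TPM (mean ± SD, n = 5), C1qa at 3236 ± 233 and C1qc at 3144 ± 251. Each was within the top 22 genes of that group by median, C1qb at rank 12. The receptors followed, with C5ar1 at 807 ± 49.5, C3ar1 at 437 ± 26.1, Itgb2 at 269.6 ± 22.8 and Itgam at 228 ± 24.1. C3 was at 47.2 ± 9.16 and C4b at 0.562 ± 0.181, rank 10804 of the 10935 genes tested. C4b shares most of its sequence with C4a, which was listed at a median of at most 1.48 scaled TPM in each of the 10 groups, so reads of the pair may be split between them.

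**Figure D1:**
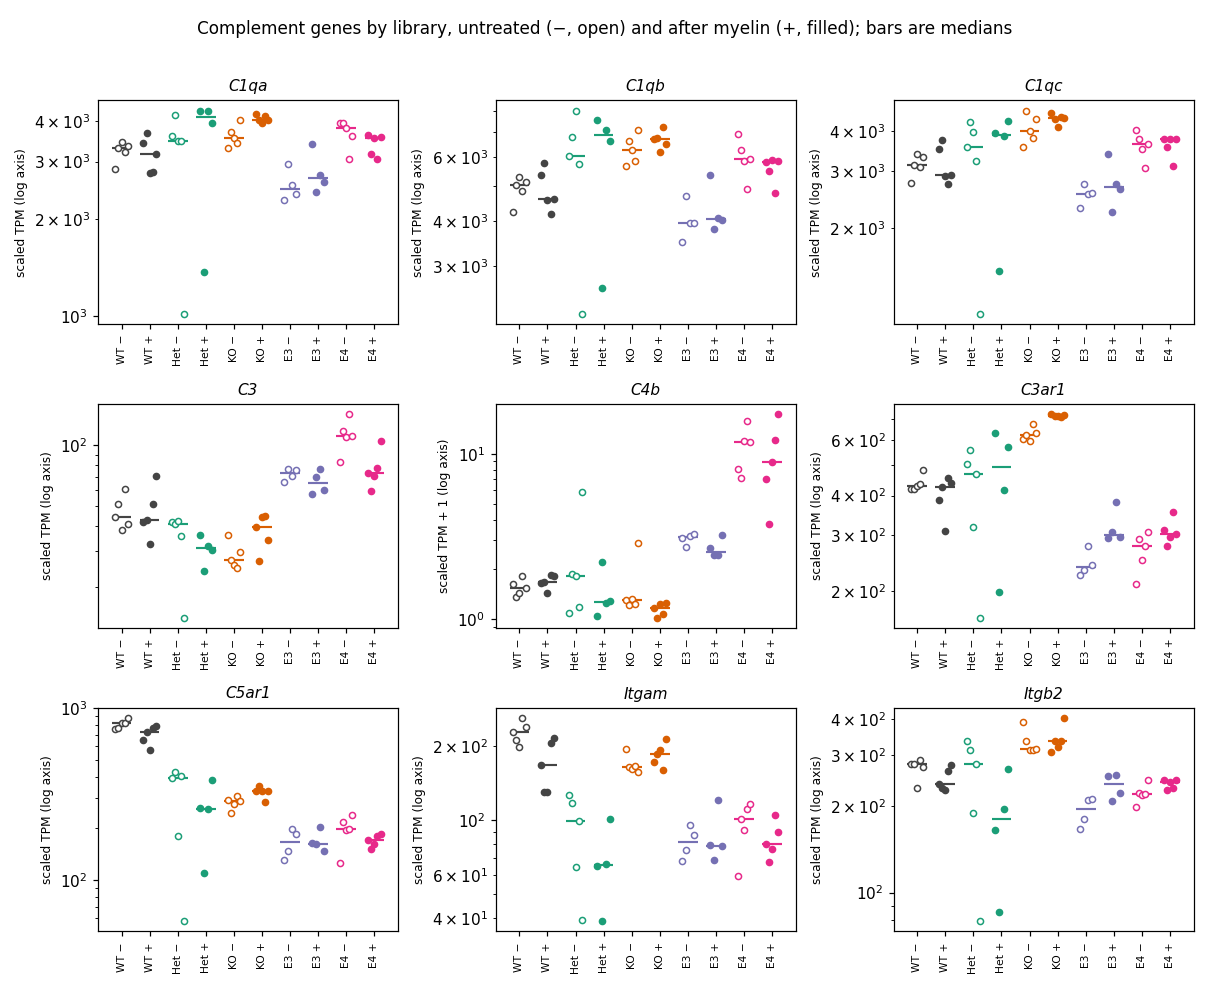
Scaled TPM of the 9 genes in each of the 47 libraries (log axes; C4b is drawn as scaled TPM + 1), by genotype, untreated (open) and after myelin (filled), with bars at group medians. By group median C1q is lowest in E3, C5ar1 is highest in WT, C3 and C4b are highest in E4, and single Het libraries lie far below the rest for most genes.

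The C1q genes were higher in E4 than in E3 cells. Untreated E3 libraries had 2280, 2390, 2536 and 2958 scaled TPM of C1qa, and untreated E4 libraries 3064, 3586, 3815, 3932 and 3951, with no overlap. C1qb ran from 3504 to 4692 in E3 and from 4907 to 6913 in E4. C1qc ran from 2301 to 2738 in E3 and from 3076 to 4030 in E4. All 5 E4 libraries were therefore above all 4 E3 libraries for each chain. The share of all genes without overlap was not counted, here or in the comparisons below. In bulk RNA, fewer cells of a type and less RNA per cell cannot be told apart. By limma the log2 difference was 0.55 ± 0.09 (SE) for C1qa (1.47-fold, adjusted p = 1.42e-05), 0.55 ± 0.09 for C1qb (adjusted p = 2.12e-05) and 0.49 ± 0.09 for C1qc (adjusted p = 0.000102).

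Of the 9 genes, 5 were called between untreated E4 and E3, all higher in E4: the 3 C1q genes, C3 and C4b. The C4b call was set by the filter, which it passed only through E4 libraries, and without it 4 of 8 were called. The share of all genes called was 26.5% in this fit and 17.9% in the reduced fit, where the same 5 were called. The median log2 difference was 0.49 over the 9 genes, 0.38 without C4b and 0.04 over all genes tested. C3ar1, C5ar1, Itgam and Itgb2 were not called, with log2 differences of 0.14 to 0.26 and adjusted p from 0.0959 to 0.273. Without weights and with the 4 low-content Het libraries kept in the shared estimate of spread, only C4b of the 5 stayed called. In that fit 753 of the 10935 genes tested were called. With the coding share as a covariate, 8 of 9 members, counted with C4b among the 9, were called, all higher in E4. In that fit 3497 of the 10935 genes tested were called, 2038 higher and 1459 lower. Coding genes took 13.6% ± 2.33 of TPM in untreated E3 (SD, n = 4) and 12.1% ± 3.24 in untreated E4 (SD, n = 5).

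After myelin the same contrast called 4 of 9 (3 of 8 without C4b), again all higher in E4, against 27.3% of all genes (11.6% in the reduced fit, with the same 4). C1qa was at 2415, 2594, 2737 and 3393 scaled TPM in E3 and at 3051, 3174, 3551, 3567 and 3615 in E4. A single E3 library reached into the E4 range. The log2 difference was 0.38 ± 0.09 for C1qa (limma adjusted p = 0.000857), 0.46 ± 0.09 for C1qb (adjusted p = 8.23e-05) and 0.46 ± 0.09 for C1qc (adjusted p = 6.22e-05). C1qa was not called without E3 myelin replicate 4, and C4b alone was called without weights in all 47 libraries. For the difference between the E4 and E3 myelin responses, 0 of 9 were called by limma, beside 0.329% of all genes (0.0% in the reduced fit). At an unadjusted p under 0.05 it was 0 of 9 members, beside 1354 of the 10935 genes tested.

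Set against WT, the C1q genes were lower in E3 and near WT in E4. Untreated WT libraries held 2848, 3219, 3306, 3348 and 3457 scaled TPM of C1qa; 1 of the 4 E3 libraries lay inside that range. In E3 the log2 difference from WT was -0.38 ± 0.09 for C1qa (limma adjusted p = 0.000378), -0.31 ± 0.09 for C1qb (adjusted p = 0.0038) and -0.32 ± 0.09 for C1qc (adjusted p = 0.00223). In E4 it was 0.17 ± 0.09 for C1qa (adjusted p = 0.0821), 0.24 ± 0.09 for C1qb (adjusted p = 0.0176) and 0.16 ± 0.09 for C1qc (adjusted p = 0.0981). C1qb in E4 lost its call without E4 untreated replicate 2 or 3, without weights in all 47 libraries, and with the coding share as a covariate (0.12, adjusted p = 0.356). These 2 comparisons share their WT libraries with each other.

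KO cells held more C1q than WT cells. Untreated KO libraries had 5672, 5843, 6274, 6622 and 7103 scaled TPM of C1qb, all above the 5 WT libraries at 4222 to 5266. The log2 difference was 0.34 ± 0.09 for C1qb (limma adjusted p = 0.000812) and 0.36 ± 0.09 for C1qc (adjusted p = 0.00042), while C1qa at 0.13 ± 0.09 was not called (adjusted p = 0.202). After myelin all 3 were called, at 0.37 ± 0.10, 0.47 ± 0.10 and 0.48 ± 0.10, and KO and WT libraries did not overlap for any of them. Of all genes, 62.1% were called between KO and WT untreated and 54.5% after myelin. In the reduced fit the same C1q genes were called in both comparisons. Without weights in all 47 libraries fewer members were called in both, as counted below, and after myelin not all 3 C1q genes kept their call. C1qb in untreated Het cells was called at 0.31 ± 0.12 (adjusted p = 0.0253) but lost the call without Het untreated replicate 1 or 2 and in 4 of 9 alternative settings, falling to 0.11 with scaling to the coding total alone (adjusted p = 0.328).

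The summed C1q level was also set against the summed level of 8 microglial markers. That marker sum was 2743 to 3235 scaled TPM in untreated E3 libraries, 3417 to 3790 in E4, 2909 to 3317 in WT and 4379 to 4879 in KO. Relative to it, C1q was 3.62 ± 0.20 (mean ± SD, n = 5) for untreated WT, 3.05 ± 0.30 (n = 4) for E3, 3.64 ± 0.29 (n = 5) for E4 and 3.01 ± 0.24 (n = 5) for KO. Between E4 and E3 the ratio's log2 difference of 0.26 had an exact two-sided permutation p of 0.0317, or 0.0705 adjusted over the 60 ratio comparisons. KO was lower than WT by this ratio, at -0.27 untreated (exact permutation p = 0.0159, adjusted 0.0454) and -0.35 after myelin (exact permutation p = 0.00794, adjusted 0.0317). So KO cells had more C1q RNA than WT per coding RNA and less per unit of these markers.

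The balance of the 3 chains, which assemble in equal numbers into one C1q molecule, shifted slightly. C1qb to C1qa was 1.48 to 1.52 in untreated WT libraries and 1.70 to 1.79 in untreated KO, with no overlap (log2 difference 0.21, exact permutation p = 0.00794, adjusted 0.0317). The same ratio was higher than in WT in untreated Het (0.31, adjusted 0.0317; 1.63 to 1.67 in the 3 libraries of higher coding share), E4 (0.11, adjusted 0.0317) and E3 (0.07, exact permutation p = 0.0159, adjusted 0.0454). C1qc to C1qa was 0.972 ± 0.0184 in untreated WT and 1.13 ± 0.0706 in untreated KO (both SD, n = 5; exact permutation p = 0.00794, adjusted 0.0317). With 5 libraries against 5, 0.00794 is the smallest p the exact test can give.

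**Figure D2:**
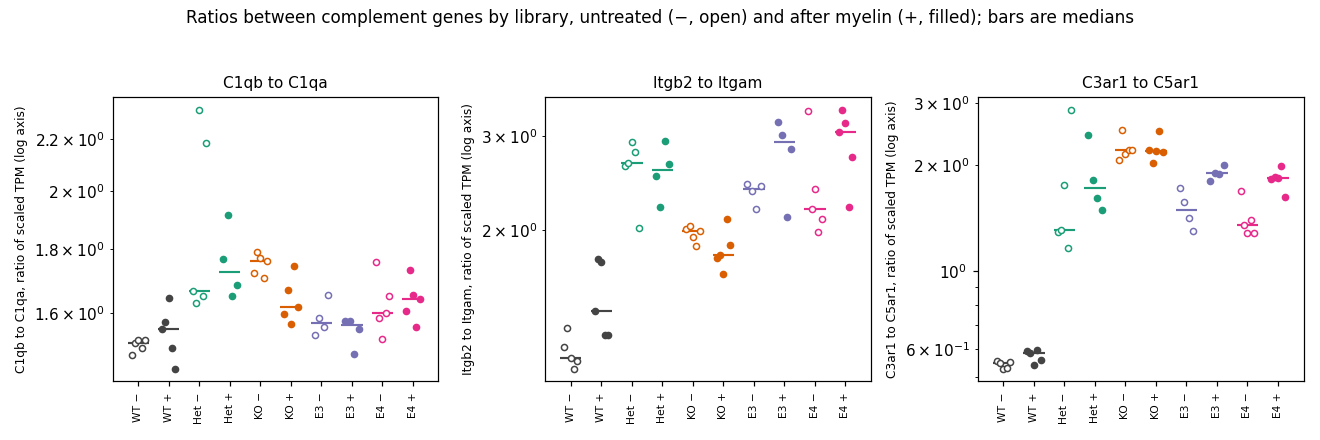
Ratios of scaled TPM between members in each library (log axes), by genotype, untreated (open) and after myelin (filled), with bars at group medians. Untreated WT libraries sit below all other untreated libraries for C1qb to C1qa and Itgb2 to Itgam, and all WT libraries are at or below 0.595 for C3ar1 to C5ar1, where every other library is at or above 1.16.

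C3, the central component, had its highest group median in E4 and, in untreated cells, its lowest in KO; after myelin the Het median of 31.1 scaled TPM lay below the KO median of 39.5. Untreated WT libraries had 38.2, 41.0, 44.5, 51.3 and 61.0 scaled TPM, and untreated KO libraries 24.9, 25.7, 27.2, 29.7 and 36.1. Untreated E3 libraries had 66.1, 70.3, 75.5 and 76.1, and untreated E4 libraries 82.9, 109.9, 110.8, 117 and 142. These 4 groups did not overlap with their neighbours in that order. The limma log2 difference was 0.65 ± 0.14 for E4 against E3 (1.57-fold, adjusted p = 0.00052), 0.64 ± 0.14 for E3 against WT (adjusted p = 9.42e-05), 1.29 ± 0.13 for E4 against WT (adjusted p = 2.87e-11) and -0.69 ± 0.13 for KO against WT (adjusted p = 1.23e-05). Het at 14.1 to 42.3 was not called against WT (-0.22 ± 0.18, adjusted p = 0.301), nor in the reduced fit (adjusted p = 0.282). After myelin C3 was not called between KO and WT (-0.33 ± 0.15, adjusted p = 0.0691) or between E4 and E3 (0.29 ± 0.13, adjusted p = 0.0981).

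C4b, the mouse C4 gene, followed the same order in the humanised lines at a far lower level. Untreated E3 libraries had 1.73, 2.10, 2.18 and 2.27 scaled TPM, and untreated E4 libraries 6.12, 7.08, 10.8, 10.9 and 14.8. WT was at 0.365 to 0.827, KO at 0.222 to 1.88 and Het at 0.0836 to 4.90. The log2 difference was 1.81 ± 0.24 for E4 against E3, 2.84 ± 0.23 for E4 against WT and 1.03 ± 0.23 for E3 against WT (limma adjusted p = 0.00019). After myelin E3 libraries had 1.43 to 2.21 and E4 libraries 2.75 to 16.3 (1.60 ± 0.22). KO against WT was not called, at -0.08 ± 0.22 untreated (adjusted p = 0.784) and -0.59 ± 0.26 after myelin (adjusted p = 0.0544). Because C4b was tested only through its E4 libraries, it had to differ in comparisons with E4, so those values are a description and no p-value is given for them. At so low a level the fold also depends on the pseudocount: E4 against E3 ranged from 1.08 to 2.18 over the alternative settings.

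With Het left aside, the untreated group medians of C3, C4b and astrocyte markers stood in the order KO, WT, E3 and E4. C4b, tested only through its E4 libraries, had medians of just 0.301 scaled TPM in KO and 0.549 in WT. In Het the astrocyte sum was lowest, while its median C3 of 40.9 scaled TPM lay above that of KO. The sum of 7 markers (Gfap, Aqp4, Aldh1l1, Slc1a2, Slc1a3, Gja1 and Aldoc) was 61.3 to 91.3 scaled TPM in untreated KO, 102 to 122 in WT, 664 to 822 in E3 and 1319 to 2296 in E4, with Het at 29.3 to 66.4. Gfap alone had medians of 29.4, 36.3, 381 and 1000.1 in these groups. Of the 7, 6 were called higher in E4 than in E3 untreated, and 6 of 7 in each of E3 and E4 against WT. Their part in the C3 and C4b differences was not tested. The order was not particular to astrocyte markers. Neuron markers had summed medians in untreated cells of 5.53 (KO), 15.6 (WT), 55.0 (E3) and 61.9 (E4), with Het at 6.86. Markers of fibroblasts and pericytes stood in another order, with summed medians in untreated cells of 845 (WT), 459 (E3), 168 (E4), 52.0 (KO) and 49.96 (Het). Untreated KO replicate 5 stood apart from its group at 637. Neutrophil S100a9, Ly6g and Retnlg, oligodendrocyte Mog and endothelial Cldn5 were at a median of 0 over the 47 libraries. Other markers of these lists were not, such as S100a8 at 7.46, Mbp at 25.4, Cspg4 at 13.7, Flt1 at 6.74 and Pecam1 at 4.20. Group medians of the summed lists ran from 3.57 to 14.7 for neutrophils and from 35.6 to 50.1 for the oligodendrocyte lineage. For endothelial cells they ran from 9.10 to 21.5.

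**Figure D3:**
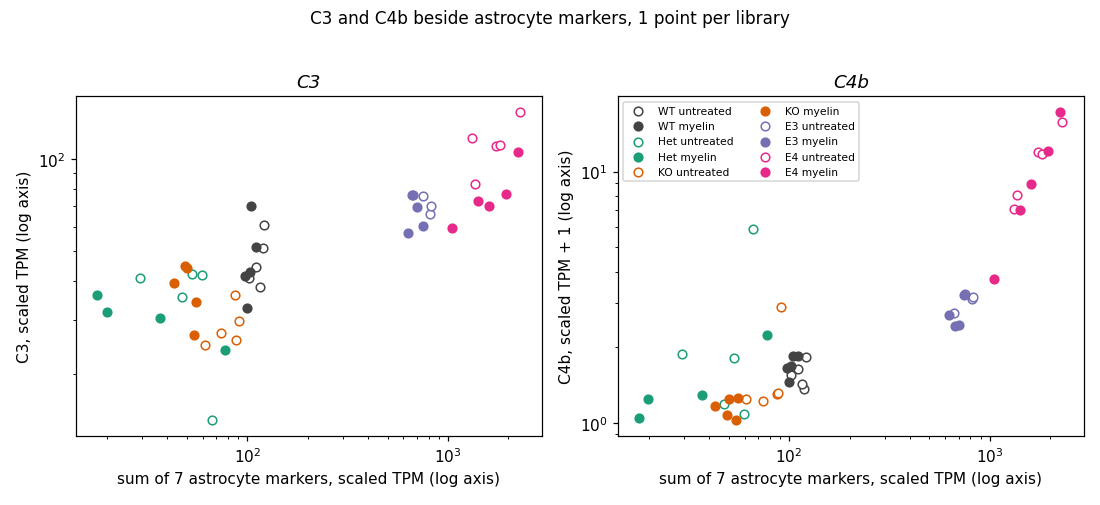
C3 (left) and C4b (right, as scaled TPM + 1) against the summed scaled TPM of 7 astrocyte markers, 1 point per library, log axes on both sides; colours give genotype, open points untreated and filled points myelin. E3 and E4 libraries lie to the right of all others and E4 libraries reach the highest C3 and C4b.

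The genes whose 10 group means followed each member most closely differed between C1q and C3. Over all 10935 genes tested, those nearest to C1qa by Pearson's r were Gm10197 (0.92), Rps6ka1 (0.90) and H2-T23 (0.90), beside its own partners C1qc (0.97) and C1qb (0.91). For C3 they were Nme7 (0.98), Mlf1 (0.97) and Nrcam (0.97), and its r with C4b was 0.87. C4b was tested only through its E4 libraries, and C3 also had its highest group median in E4. No support is therefore drawn from that r. C3 and C1qa had an r of -0.13. These are descriptions over 10 group means that share the same libraries.

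Among the receptors, C5ar1 was lower than in WT in each of the other genotypes. This receptor for C5a had 755, 766, 815, 824 and 878 scaled TPM in untreated WT libraries. Untreated KO libraries had 247, 278, 286, 293 and 306. Untreated E3 libraries had 130.3, 148, 186 and 197, and E4 libraries 125, 195, 198, 217 and 239.7. Untreated Het libraries had 57.5, 181, 391, 404 and 427, the 2 lowest being the low-content ones. No library of another genotype reached the WT range, whereas E3 and E4 overlapped. The log2 difference from WT was -1.53 ± 0.11 in KO (2.88-fold lower, limma adjusted p = 5.3e-16), -2.27 ± 0.12 in E3 (4.82-fold lower, adjusted p = 1.42e-20), -2.003 ± 0.11 in E4 (4.01-fold lower, adjusted p = 1.72e-19) and -1.09 ± 0.15 in Het (-0.98 ± 0.14 in the reduced fit). All 4 were called in each alternative run, including the fit without weights. In the Het comparison the value ranged from -1.78 to -0.77.

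C5ar1 lies on the same chromosome as Apoe, 3.44 Mb away. Its position is chr7:16246743-16259540 and that of Apoe chr7:19696109-19699188 (GRCm38). C5ar2, another C5a receptor gene beside C5ar1, had medians of 5.12 scaled TPM in untreated WT, 1.38 in KO, 2.64 in Het, 0.534 in E3 and 0.457 in E4. Only the WT median lay above the filter's 5 scaled TPM. The filter may therefore have set the C5ar2 differences from WT, and no support is drawn from them. Among 68 other tested genes within 5 Mb of Apoe, 46 were called between untreated KO and WT, 21 lower and 25 higher, or 67.6% where 62.1% of all genes were called. In E3 against WT 47 of these 68 were called (69.1%, beside 61.6% of all genes), in E4 against WT 49 (72.1%, beside 66.6%) and in Het against WT 40 (58.8%, beside 57.3%). The median absolute log2 difference of these 68 was 0.468 in KO, 0.481 in E3, 0.474 in E4 and 0.347 in Het. Over all genes tested it was 0.325, 0.335, 0.377 and 0.381, so it was larger near Apoe except in Het. The Apoe allele, DNA linked to it on chromosome 7 and the mouse line cannot be told apart here. Itgam is on the same chromosome but 108 Mb away.

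C3ar1, the receptor for C3a, went up in KO and down in the humanised lines. It stood at 418, 419, 429.6, 436 and 482 scaled TPM in untreated WT and at 598, 604, 620.5, 631 and 673 in untreated KO. E3 libraries had 223, 233, 242 and 277, and E4 libraries 209.8, 250.2, 276, 291 and 306. KO lay wholly above WT, and E3 and E4 wholly below it. The limma log2 difference was 0.50 ± 0.08 in KO (adjusted p = 1.1e-06), -0.84 ± 0.09 in E3 (adjusted p = 4.64e-11) and -0.71 ± 0.08 in E4 (adjusted p = 1.05e-09). After myelin KO against WT was at 0.81 ± 0.10 (1.76-fold, adjusted p = 1.9e-09), and C5ar1 at -1.11 ± 0.13 (2.16-fold lower, adjusted p = 1.13e-09). The ratio of C3ar1 to C5ar1 was 0.542 ± 0.0122 in untreated WT and 2.22 ± 0.172 in untreated KO (both SD, n = 5; exact permutation p = 0.00794, adjusted 0.0317).

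The 2 chains of complement receptor 3 did not move in parallel. Itgam stood at 199, 212, 229.5, 239 and 262 scaled TPM in untreated WT libraries and at 157, 161, 165, 167 and 195 in KO. E3 libraries had 68.3, 76.0, 87.5 and 95.6, and E4 libraries 59.5, 91.3, 100.8, 111 and 117. Itgb2 stood at 230.1, 273, 278, 279 and 289 in WT, 311, 313, 314, 336 and 392 in KO, 167 to 212 in E3 and 198 to 245 in E4. Itgam was thus below WT in all 3 lines, while Itgb2 was above WT in KO and below it in E3. The log2 difference from WT was -0.41 ± 0.12 for Itgam in KO (limma adjusted p = 0.00235), -1.43 ± 0.12 in E3 (adjusted p = 3.1e-13), -1.19 ± 0.12 in E4 (adjusted p = 1.21e-11) and -0.9999 ± 0.16 in Het (adjusted p = 7.98e-07), or -0.99 ± 0.18 in the reduced fit. For Itgb2 it was 0.30 ± 0.09 in KO (adjusted p = 0.00219), -0.46 ± 0.09 in E3 (adjusted p = 2.53e-05) and -0.27 ± 0.09 in E4 (adjusted p = 0.00645). The E4 value lost its call with the coding share as a covariate. After myelin Itgb2 was higher in KO than in WT at 0.42 ± 0.10 (adjusted p = 0.000539), and Itgam was at 0.05 ± 0.14 (adjusted p = 0.777). Itgb2 to Itgam was 1.19 ± 0.0816 in untreated WT, 1.97 ± 0.0666 in KO (both SD, n = 5), 2.35 ± 0.111 in E3 (SD, n = 4) and 2.40 ± 0.543 in E4 (SD, n = 5), each above WT by the exact permutation test (adjusted p 0.0317 for KO and E4, 0.0454 for E3).

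**Figure D4:**
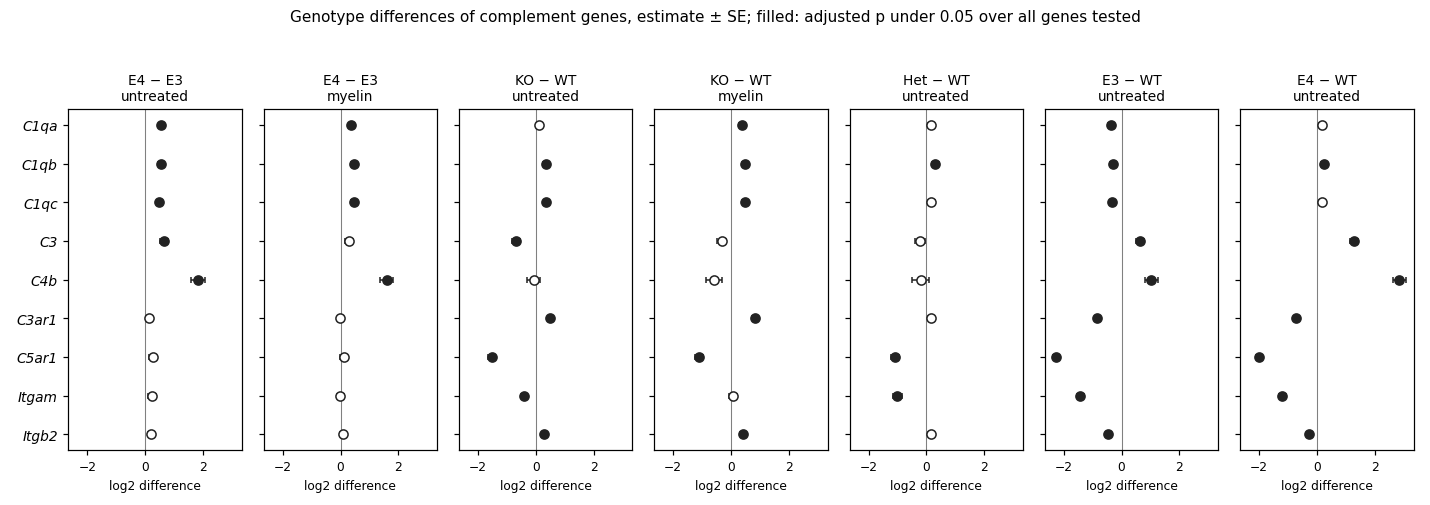
Log2 differences between genotypes (limma estimate ± SE on log2(scaled TPM + 1)) for the 9 genes in 7 comparisons, on one shared axis; filled points are called at an adjusted p under 0.05. C5ar1 lies left of 0 in every comparison with WT, and C4b lies furthest to the right in E4 against E3 and in E4 against WT.

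Counts of called members against WT have to be read beside how many genes were called in all. Between untreated KO and WT, 7 of 9 members were called, 4 higher and 3 lower, where 62.1% of all genes were called (56.5% in the reduced fit). After myelin it was 6 of 9, 5 higher and 1 lower, beside 54.5% (55.7% in the reduced fit). In untreated Het, 3 of 9 were called beside 57.3% (56.5% in the reduced fit). In untreated E3 all 9 were called, 2 higher and 7 lower, beside 61.6% (55.3% in the reduced fit), and in untreated E4 7 of 9, 3 higher and 4 lower, beside 66.6% (63.6% in the reduced fit). Over the 9 genes the median log2 difference was 0.13 and 0.37 in KO, -0.38 in E3 and 0.16 in E4; over all genes tested it was 0.03, 0.07, -0.02 and -0.01. Without C4b the E4 median was -0.05, and 6 of 8 were called. The 6 members not called in Het had log2 differences of -0.22 to 0.17 and adjusted p from 0.204 to 0.588. The same number of members was called in the reduced fit in each of these 5 comparisons. Without weights in all 47 libraries 3, 2, 3, 5 and 5 members were called, in the same order. Of the 10935 genes tested, that fit called 4677, 4494, 6634, 4302 and 5543.

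Counts of members called for myelin also have to be read beside the share of all genes called. In WT and in KO 0 of 9 were called by limma, where 9.43% and 5.36% of all genes were (6.34% and 2.36% in the reduced fit, also with 0 of 9). With shares this low, 0 of 9 is near the overall share and is not read as a trait of these genes. At an unadjusted limma p under 0.05, 1 member in WT and 3 in KO would have passed, beside 2167 and 2144 of the 10935 genes tested. The C1q genes had log2 responses from -0.05 to -0.01 in WT, 0.09 to 0.19 in KO, 0.05 to 0.09 in E3 and -0.09 to 0.05 in E4, none called. Other responses short of the threshold, with an adjusted p under 0.1, were C5ar1 in Het (-0.53 ± 0.18, adjusted p = 0.0749, and 0.486 in the reduced fit), C3 in KO (0.40 ± 0.14, adjusted p = 0.0689), Itgb2 in E3 (0.23 ± 0.09, adjusted p = 0.0801), and C5ar1 and Itgam in E4 (-0.25 ± 0.11 and -0.27 ± 0.12, adjusted p = 0.0938 and 0.0954).

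C3 fell after myelin in E4 cells. The 5 untreated libraries given above were at 82.9 to 142 scaled TPM, and the myelin libraries at 59.4, 70.4, 72.8, 76.8 and 105, so the groups overlapped through 1 myelin library. The log2 response was -0.57 ± 0.13 (limma adjusted p = 0.00112). It was the only one of 9 called, beside 22.6% of all genes (12.8% in the reduced fit, where C3 was called at an adjusted p of 0.0192). The astrocyte marker sum was 1319 to 2296 in the untreated E4 libraries and 1045 to 2229 in these myelin libraries. By limma 0 of its 7 genes were called as changed by myelin in E4. Myelin replicate 2 was lowest in both the sum and C3 (1045 and 59.4), and replicate 5 highest in both (2229 and 105). The part of astrocyte RNA in the C3 response was not tested. In E3 cells C3 went from 66.1 to 76.1 before to 57.2, 60.2, 69.6 and 76.0 after myelin (-0.21 ± 0.14, adjusted p = 0.300). The E4 response differed from that in WT at -0.61 ± 0.20 (adjusted p = 0.0446), the 1 member called beside 9.18% of all genes, but not in the reduced fit (adjusted p = 0.141, 0 of 9, 4.55%) and not from that in E3 (-0.36 ± 0.19, adjusted p = 0.444).

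C3ar1 rose after myelin in E3 cells. Myelin libraries had 293, 296, 306 and 381 scaled TPM, all above the 223 to 277 of untreated E3. The log2 response was 0.32 ± 0.09 (limma adjusted p = 0.0115), the 1 member called beside 18.2% of all genes (6.92% in the reduced fit, adjusted p = 0.0261). It differed from the WT response by 0.42 ± 0.13 (adjusted p = 0.0336), again the 1 member called, beside 10.1% of all genes (3.27% in the reduced fit, adjusted p = 0.0421). Leaving out single libraries ended that call in 9 of 18 cases. In KO cells C3ar1 was at 708, 716, 716, 719 and 724 after myelin, above every untreated KO library, but its response of 0.21 ± 0.09 was not called (adjusted p = 0.152). The KO response differed from the WT response in 0 of 9 members, beside 10.0% of all genes (3.11% in the reduced fit, also 0 of 9). At an unadjusted p under 0.05 it was 3 members, beside 2802 of the 10935 genes tested.

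In Het cells myelin gave lower Itgam and Itgb2, at -0.70 ± 0.19 (limma adjusted p = 0.0261) and -0.63 ± 0.14 (adjusted p = 0.00665), 2 of 9 beside 5.29% of all genes. Itgam stood at 39.4, 64.5, 99.8, 117 and 127 scaled TPM untreated and at 38.8, 65.2, 66.3 and 101.3 after myelin, so the groups overlapped. Neither was called in the reduced fit, which leaves out 4 of these 9 libraries (adjusted p = 0.487 and 0.211, beside 0.0732% of all genes). 

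**Figure D5:**
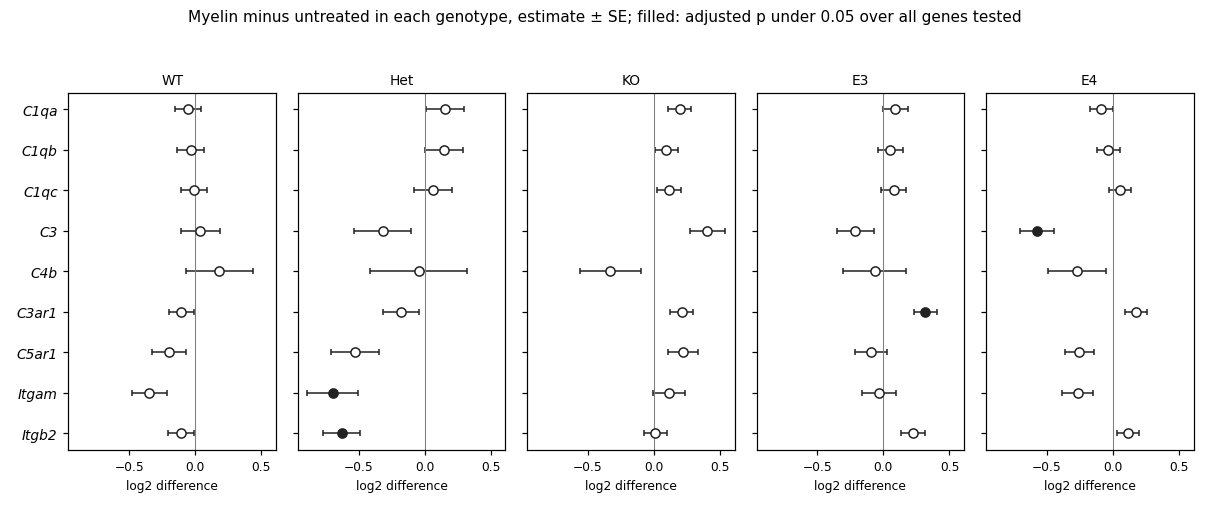
Log2 difference of myelin minus untreated (limma estimate ± SE on log2(scaled TPM + 1)) for the 9 genes in each genotype, on one shared axis; filled points are called at an adjusted p under 0.05. Filled points are Itgam and Itgb2 in Het, C3ar1 in E3 and C3 in E4.

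In all, 19 other complement genes passed the filter, of 48 looked up. Between untreated E4 and E3, 4 of these 19 (21.1%) were called, 3 higher and 1 lower, beside 26.5% of all genes. Masp1, a lectin-pathway protease, was lower at -0.95 ± 0.11 (limma adjusted p = 5.53e-09), while Clu, a fluid-phase inhibitor of the terminal complex, was higher at 0.85 ± 0.17 (adjusted p = 0.000142). C2, which is cleaved to form part of the C3 convertase, was higher at 0.32 and was not called in the reduced fit. After myelin 5 of 19 (26.3%) were called beside 27.3% of all genes, 2 higher and 3 lower: Clu at 0.96, C2 at 0.45, Masp1 at -0.58, the ficolin gene Fcna at -0.44 and Cfb at -0.42. C2 and Cfb were not called in the reduced fit.

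Against WT the other complement genes changed widely, as did the transcriptome. In untreated KO 14 of 19 were called (73.7%, beside 62.1% of all genes), 7 higher and 7 lower, among them C5ar2 at -1.36 ± 0.10, C1qbp at 2.36 ± 0.19, Cfp (properdin, which stabilises the alternative-pathway convertase) at -1.23 ± 0.11 and Masp1 at -1.05 ± 0.10. By the untreated medians given above, C5ar2 may have passed the filter only through WT, so its values against WT are a description. After myelin 13 of 19 were called in KO (68.4%, beside 54.5%), 7 higher and 6 lower, with Vsig4, a macrophage receptor for C3 fragments, at 1.75 ± 0.20 and Fcna at 0.88 ± 0.10 beside C5ar2 at -1.23 ± 0.11 and Masp1 at -1.03 ± 0.12. In untreated Het 12 were called (63.2%, beside 57.3%), 1 higher (C1qbp, 2.48 ± 0.26) and 11 lower, among them Cfp at -1.47 ± 0.15, Clu at -1.56 ± 0.21 and the C1 inhibitor gene Serping1 at -2.74 ± 0.38.

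In untreated E3 17 of 19 were called (89.5%, beside 61.6% of all genes), 5 higher and 12 lower, and in E4 16 of 19 (84.2%, beside 66.6%), 4 higher and 12 lower, with median log2 differences over the 19 of -0.61 and -0.67. Clu was higher by 3.31 ± 0.16 in E3 and 4.16 ± 0.16 in E4 on the log2 scale, with medians of 27.3 scaled TPM in WT, 294 in E3 and 536 in E4. Cd59a, a membrane inhibitor of the terminal complex, was higher by 1.82 ± 0.10 and 1.70 ± 0.10. C5ar2 was at -1.93 ± 0.10 and -1.996 ± 0.10, and the phagocyte receptor gene Cd93 at -1.02 ± 0.09 in E4. The C5ar2 values are again a description, because of the filter. Astrocytes are also known to make Clu; the astrocyte marker sums of these groups are given above, and their part in the Clu difference was not tested.

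Myelin responses of the other complement genes were led by C1qbp. C1qbp, whose multifunctional product was first described as a C1q-binding protein, rose in WT at 1.78 ± 0.22 (limma adjusted p = 3.1e-07), in E3 at 0.79 ± 0.20 and in E4 at 0.90 ± 0.19. Its response was smaller in KO than in WT by -1.62 ± 0.29 (adjusted p = 0.000264, and 0.0372 in the reduced fit). The differences from WT in E3 (-0.99 ± 0.30) and E4 (-0.88 ± 0.29) were called only with weights. Among the genes tested, 2 of 19 were called in WT (C1qbp among them), 3 in KO (Clu, Cfb and C2), 3 in E3 (C1qbp, Cfp and Colec12) and 2 in E4 (C1qbp and Itgal). Het had 3, Clu and Fcna among them, and 0 in the reduced fit. These counts are 10.5% of the 19 in WT and E4 and 15.8% in Het, KO and E3, beside the shares of all genes given above (9.43%, 22.6%, 5.29%, 5.36% and 18.2%, in that order). Clu fell in KO at -0.89 ± 0.16 (adjusted p = 0.000364), where 3 of 7 astrocyte markers fell as well.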

How the data were processed

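The 47 libraries were polyA RNA, prepared with a low-input SMARTer kit per the labels' protocols. The authors deposited 1 table of TPM per gene; every column sums to 1000000 before rescaling, and depth is unknown. Salmon 0.13.1, limma 3.40.6 and mm10 are named, with no role, per the submitters' processing notes. From it TPM were rescaled to the nuclear protein-coding total without mitochondrial genes, then by a trimmed-mean factor (30% of ratios and 5% of levels trimmed). Genes that reached 5 scaled TPM in 4 or more libraries (10625 coding, 310 lincRNA) were tested with limma 3.58.1 in R 4.3.3 on log2(scaled TPM + 1): 10 group means in 1 fit, array weights, a trend in the empirical Bayes step, two-sided tests and Benjamini-Hochberg adjustment, threshold 0.05. The weight estimation stopped before its tolerance in some refits. A fold is on the log2(scaled TPM + 1) scale and understates changes of low genes. Ratios were tested with exact permutation tests (scipy 1.17.1), adjusted over 60 comparisons. The fit was tested on simulated data.

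The members and all gene lists were chosen with earlier results of these data known. The 9 members are always named; of the other complement genes, at most 4 called per comparison are named in order of adjusted p (Cfb was added after its values were seen), and for C1qa and C3 the 3 non-members with the highest r. Members of short lists named in myelin responses follow the same order. No 2 libraries were identical, and r between replicates was 0.785 to 0.989. Positions come from GENCODE for 98.34% of genes. Alternatives were another scaling, no weights, leaving out 4 Het libraries, pseudocounts 0.1 and 5, no filter, the coding share as a covariate, a replicate block and leaving out each replicate. The fit with weights and without the 4 Het libraries was added after seeing the data. Some of the genes counted in the lists are not reported here by name.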

Additional observations from a re-analysis of the deposited data

Results flagged for a closer look

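In 11 of the 90 combinations of a member and a group, the highest or lowest library lay further from the others than Dixon's 95% limit allows; chance alone marks about 1 in 20 groups. Of these, 7 came from 2 low-content Het libraries, each of them the lowest of its group. In untreated Het replicate 5, C1qa was at 1017 scaled TPM with the others at 3461 or above, C1qb at 2219 with the others at 5739 or above, C1qc at 1076 with the others at 3224 or above, and C3 at 14.1 with the others at 35.6 or above. In Het myelin replicate 2, C1qa was at 1370 with the others at 3947 or above, C1qb at 2620 with the others at 6644 or above, and C1qc at 1469 with the others at 3862 or above.

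The other 4 were in groups of ordinary coding share. C4b was at 1.88 scaled TPM in untreated KO replicate 5, with the others at 0.317 or below. That library also had a fibroblast and pericyte marker sum of 637 scaled TPM, with the other untreated KO libraries at 30.3 to 71.0. The part of such markers in its C4b level was not tested. C3ar1 was at 381 in E3 myelin replicate 3, with the others at 306 or below. Itgam was at 195 in untreated KO replicate 1, with the others at 167 or below, and Itgb2 at 230.1 in untreated WT replicate 3, with the others at 273 or above.

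Myelin responses differed between genotypes for 2 members by the interaction term in limma. The C3ar1 response in E3 exceeded that in WT by 0.42 (adjusted p = 0.0336), and it was called in 6 of 9 alternative settings. The C3 response in E4 was below that in WT at -0.61 (adjusted p = 0.0446), called in 4 of 9.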

How the results depend on the processing

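Directions of called members held in every alternative except 1: Itgb2 in untreated E4 against WT was at 0.00115 (log2) with the coding share as a covariate, adjusted p = 0.993; the cause was not tested. Counts of called members moved as follows. Without weights in all 47 libraries the counts were 0 for the myelin responses in Het, E3 and E4 and for the E3 and E4 responses minus WT, 1 for E4 against E3 untreated and after myelin, 3 and 2 for KO against WT untreated and after myelin, and 5 for E3 against WT. Without weights and without the 4 Het libraries they were 0 for Het myelin and for E4 minus WT. With weights but without those 4 they were 0 for Het myelin, 2 for E3 myelin, 2 for E4 myelin and 0 for E4 minus WT. With no filter they were 0 for Het myelin, E3 minus WT and E4 minus WT. With the coding share as a covariate they were 0 for Het myelin and E3 minus WT, 3 for E4 myelin and 8 for E4 against E3 untreated. In that last comparison 3497 of all genes were called. With scaling to the coding total alone they were 2 for E4 myelin and 0 for E4 minus WT. The causes were not tested.

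The labels give all groups the same replicate numbers, but libraries that share a number did not deviate together (r from -0.536 to 0.452 between the untreated and myelin libraries of a genotype; in no genotype did every library correlate best with its own number). With a replicate block the counts were 1 for WT myelin, 0 for Het myelin, 2 for E4 myelin and 1 for KO minus WT, and the other counts stayed within 1.5 times.

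Leaving out 1 replicate at a time, the counts ran from 0 to 1 (WT myelin), 0 to 3 (Het), 0 to 1 (KO), 1 to 2 (E3), 1 to 3 (E4), 5 to 7 (E4 against E3), 3 to 5 (the same after myelin), 7 to 7 (KO against WT), 6 to 8 (the same after myelin), 2 to 4 (Het against WT), 9 to 9 (E3 against WT), 6 to 9 (E4 against WT), 0 to 0 (E4 minus E3 response), 0 to 3 (KO minus WT), 0 to 2 (E3 minus WT) and 0 to 1 (E4 minus WT). The Apoe difference ran from -9.57 to -9.45 in KO and from -0.54 to 0.0527 in Het, turning without Het untreated replicate 5. Scaling to the coding total alone moved the median of all genes to -0.16 in Het against WT and -0.13 in the Het myelin response; elsewhere it moved by under 0.1. It changed the split of higher and lower genes from 3258 and 3004 to 2234 and 4268 in Het against WT, from 181 and 398 to 310 and 1344 in Het myelin, from 1504 and 970 to 1183 and 1489 in E4 myelin, from 1654 and 1336 to 1230 and 1498 in E4 against E3 after myelin, from 15 and 21 to 6 and 27 in E4 minus E3, and from 484 and 520 to 335 and 604 in E4 minus WT. All genes called fell without weights in all 47 libraries from 2898 to 753 in E4 against E3 untreated, from 2990 to 494 after myelin, from 6736 to 4302 in E3 against WT, and to 2 to 403 in the myelin responses and their differences other than E4 minus E3, where it was 0 (149 at an unadjusted p under 0.05). Other counts over all genes that moved by more than 1.5 times, outside the fit without the 4 Het libraries, were 1654 for Het myelin with the coding total alone; 0 for Het myelin (1186 at an unadjusted p under 0.05), 1378 for E4 myelin, 62 for E4 minus E3 and 483 for E3 minus WT with the covariate; and 342 for Het, 357 for KO, 678 for KO minus WT and 0 for E4 minus E3 (1031 at an unadjusted p under 0.05) with the block. Their values in the main analysis were 579 for Het, 586 for KO, 2474 for E4, 36 for E4 minus E3, 1107 for E3 minus WT and 1095 for KO minus WT. In the fit without weights and without the 4 Het libraries, E4 minus E3 had 479 genes at an unadjusted p under 0.05. Depth is unknown, and the low coding share of the Het libraries limits what their values can show.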
